A study of Mus musculus with 10 samples.

Results

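The IGKV3 genes are the V segments of the mouse *Igk* locus that lie nearest to the J segments, and 8 of them were followed here by name: IGKV3-1, IGKV3-2, IGKV3-3, IGKV3-4, IGKV3-5, IGKV3-7, IGKV3-10 and IGKV3-12. A clonotype was assigned to one of these genes when its row listed that V gene alone, and a clonotype is here 1 row of a table, that is a V gene, a J gene and a CDR3 amino acid sequence with its number of reads. A few rows repeated the V gene, J gene and CDR3 of another row in the same library, and their reads were summed where the reads of a named CDR3 are given. The assignment gave 2818 of 44103 *Igk* clonotypes in 6 libraries of rearranged genomic DNA. The libraries came from B cells sorted from the peritoneal cavity of C57BL/6 mice aged 6 to 8 weeks, and each of 3 groups had 2 libraries: B-1a cells of wild-type mice (WT B-1a), B-1a cells of mice with a knockout of *Igll1* (Igll1-/- B-1a), and B-2 cells of wild-type mice (WT B-2). In the study's gates, B-1a cells were low for B220 and CD5+, and B-2 cells were B220+. *Igll1* encodes λ5, a part of the surrogate light chain, so Igll1-/- mice lack the pre-B-cell receptor in every cell from the start of B-cell development. The tables hold rearrangements and no RNA, so neither the sort nor the deletion could be checked against marker genes, and nothing in the labels says that the libraries of a group came from different mice.

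A κ light chain is made when a V segment joins a J segment, and the codons at the joint form the end of CDR3, one of the loops that contact antigen. A cell can rearrange the same *Igk* allele again, joining a V gene upstream of the first joint to a J gene downstream of it, so joints to IGKJ1 and IGKJ2 are typical of early rearrangements and joints to IGKJ4 and IGKJ5 of later ones. IGKJ3 is not functional in the mouse. B-1a cells are a self-renewing population with a restricted set of receptors, many of them made before birth and with few added nucleotides, whereas B-2 cells are replenished from the bone marrow. In the RefSeq annotation of chromosome 6 (assembly GRCm38.p6) all 8 genes matched a segment by name, and 12 segments stood in a row from Igkv3-12 to Igkv3-1. Among these were 3 pseudogenes and Igkv3-9, which is not one of the 8, and 0 segments of another family.

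By reads, most CDR3s of a gene shared their first 7 residues, which the V gene encodes, and varied in the residues made at the joint. The most frequent start of a productive CDR3 is shown for each gene because the CDR3s named below are built on it.
IGKV3-1: QQSRKVP
IGKV3-2: QQSKEVP
IGKV3-3: QQSIEDP
IGKV3-4: QQSNEDP
IGKV3-5: QQSNEDP
IGKV3-7: QHSWEIP
IGKV3-10: QQNNEDP
IGKV3-12: QHSRELP
IGKV3-4 and IGKV3-5 had the same start, so the call between these 2 genes rested on sequence outside CDR3. Between 84.2% (IGKV3-12) and 96.4% (IGKV3-1) of a gene's productive reads carried its start over all libraries, but by clonotypes, many of them of 1 read, it was 20.8% (IGKV3-7) to 46.6% (IGKV3-1). In length, 68.9% to 90.9% of its productive clonotypes had a CDR3 of 9 residues. In those 9-residue CDR3s that carried the gene's start, the last 2 residues followed the J gene. With IGKJ1 they were tryptophan-threonine in 66.7% of reads and arginine-threonine in 29.4%. With IGKJ2 they were tyrosine-threonine in 93.3% of reads, and with IGKJ5 leucine-threonine in 88.1% and proline-threonine in 10.5%.

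The libraries held 5701 to 8652 clonotypes from 214000 to 288396 reads, 57.7% to 59.2% of the clonotypes rested on 1 read, and 5.72% to 6.68% listed several V genes and were counted to none. A share that rests on 3 clonotypes lay between 0.0347% and 0.0526% of a library. A degenerate V primer was used with added primers for some V genes, so the order of genes within a library depends on the primers too, whereas a gene met the same primers in all libraries. No molecular barcode marked the template, and the intervals below cover counting error only.

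Together the 8 genes made up 5.11% (95% Wilson interval 4.63 to 5.65) and 5.24% (4.74 to 5.79) of clonotypes in WT B-1a, 7.03% (6.40 to 7.73) and 9.60% (8.93 to 10.3) in Igll1-/- B-1a, and 6.23% (5.74 to 6.76) and 5.54% (5.07 to 6.04) in WT B-2. Both Igll1-/- libraries lay above all 4 wild-type libraries, and they differed from each other more than the libraries of the other groups did. The group means were 5.18% ± 0.09, 8.32% ± 1.81 and 5.88% ± 0.49 (SD, n = 2 each). In reads the family took 4.30% and 3.82% in WT B-1a, 7.59% and 13.2% in Igll1-/- B-1a and 5.24% and 4.39% in WT B-2. IGKV3-7 alone held 219 and 385 of the 401 and 666 clonotypes of the 8 genes in Igll1-/- B-1a. It held 180 and 115 of 370 and 365 in WT B-1a, and 105 and 84 of 539 and 477 in WT B-2. Of the 7 genes tested below, 3 were higher and 4 lower in Igll1-/- than in WT B-1a, so the sum does not stand for each gene. The sum over chosen genes was not tested. V genes of other families next in the locus, at position numbers 13 to 32, made up 17.1% to 19.3% of clonotypes in the 6 libraries.

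IGKV3-7 was the most used of the 8 genes in both B-1a groups, and its share was highest in Igll1-/- B-1a. It made up 2.49% (95% Wilson interval 2.15 to 2.87) and 1.65% (1.38 to 1.98) of clonotypes in WT B-1a, 3.84% (3.37 to 4.37) and 5.55% (5.03 to 6.11) in Igll1-/- B-1a, and 1.21% (1.004 to 1.47) and 0.975% (0.788 to 1.21) in WT B-2. The 3 groups did not overlap. Among all V genes of a library IGKV3-7 ranked 8 and 15 by clonotypes in WT B-1a, 4 and 3 in Igll1-/- B-1a, and 27 and 39 in WT B-2. By reads it was the most abundant V gene of Igll1-/- replicate 2, with 10.3% of all reads, against 5.90% in Igll1-/- replicate 1, 2.86% and 1.82% in WT B-1a and 1.22% and 0.830% in WT B-2.

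**Figure D1:**
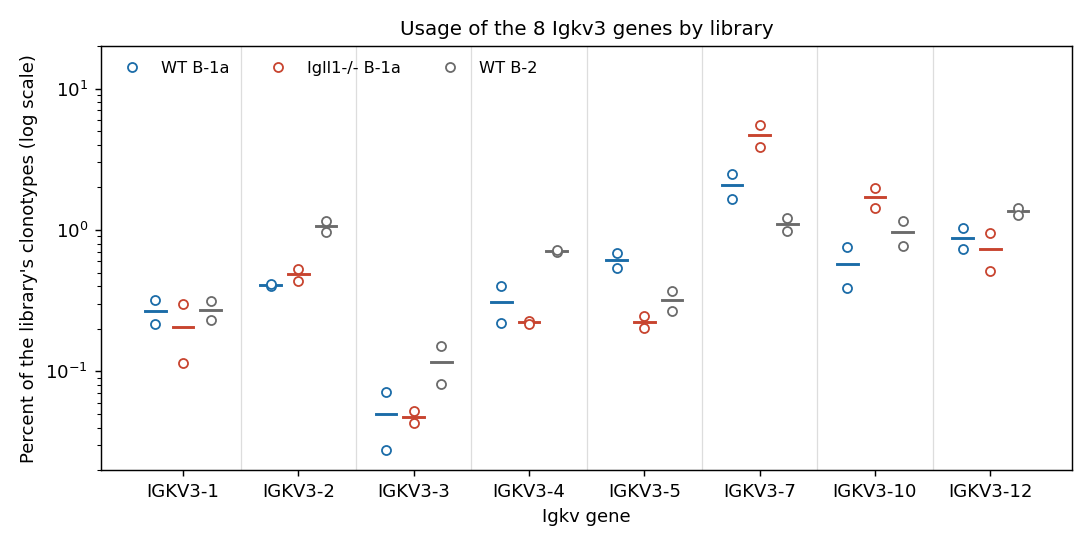
Percent of a library's clonotypes (log scale) assigned to each of the 8 Igkv3 genes; points are the 2 libraries of a group, short lines their mean. IGKV3-7 lies highest in Igll1-/- B-1a (mean 4.69%), whereas IGKV3-5 lies lowest there (mean 0.224%).

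IGKV3-10 made up 0.387% (28 clonotypes) and 0.761% (53) in WT B-1a, 1.42% (81) and 1.99% (138) in Igll1-/- B-1a, and 1.16% (100) and 0.766% (66) in WT B-2. Both Igll1-/- libraries were above the other 4. IGKV3-5 showed the opposite order between the B-1a groups, with 0.539% (39 clonotypes) and 0.689% (48) in WT B-1a against 0.246% (14) and 0.202% (14) in Igll1-/- B-1a. In WT B-2 it stood at 0.266% (23) and 0.372% (32), between the B-1a groups and not overlapping with either.

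IGKV3-2, IGKV3-4 and IGKV3-12 were used most in WT B-2, and their B-1a groups overlapped or lay close together. IGKV3-2 made up 0.401% and 0.416% of clonotypes in WT B-1a, 0.439% and 0.533% in Igll1-/- B-1a, and 1.16% and 0.964% in WT B-2. IGKV3-4 made up 0.221% and 0.402% in WT B-1a, 0.228% and 0.216% in Igll1-/- B-1a, and 0.693% and 0.720% in WT B-2. IGKV3-12 made up 0.733% and 1.03% in WT B-1a, 0.509% and 0.951% in Igll1-/- B-1a, and 1.43% and 1.28% in WT B-2. For all 3 genes both WT B-2 libraries lay above all 4 B-1a libraries. Most V genes had this direction: of all 84 V genes tested below, 61 were lower in Igll1-/- B-1a than in WT B-2. In WT B-1a 59 of the 84 were lower than in WT B-2. How many of all V genes showed no overlap was not counted.

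The remaining genes were rare. IGKV3-1 held 8 to 27 clonotypes per library, that is 0.115% to 0.318%, with all groups overlapping. IGKV3-3 held 2 to 13 clonotypes per library and was left out of the tests, which required at least 10 clonotypes in at least 2 libraries. In WT B-1a replicate 1 the larger of its 2 clonotypes had the CDR3 QQRSSYPLT, which does not carry the IGKV3-3 start, and the reads of the gene were on average 89.0% identical to the assigned V gene there.

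Usage was compared with edgeR's quasi-likelihood test on clonotypes per V gene, fitted over the 6 libraries and 84 V genes, with Benjamini-Hochberg adjustment and a threshold of 0.05. The 3 comparisons share libraries and are not independent of each other. Between Igll1-/- and WT B-1a cells, 3 of the 7 tested IGKV3 genes passed, where 17.9% of all tested V genes did (15 of 84). IGKV3-7 rose with a log2 fold change of 1.18 (SE 0.26, edgeR adjusted p = 0.0089), and IGKV3-10 rose by 1.57 (SE 0.43, edgeR adjusted p = 0.026). IGKV3-5 was lower, with a log2 fold change of -1.46 (SE 0.45, edgeR adjusted p = 0.044). The other 4 genes had log2 fold changes from -0.48 (IGKV3-4) to 0.25 (IGKV3-2) and edgeR adjusted p-values of at least 0.52. The median log2 fold change was -0.26 over the 7 genes and -0.17 over all 84. Without WT B-1a replicate 1 or replicate 2, 0 of the 7 genes passed in edgeR, although the values kept their direction: 1.51 and 0.92 for IGKV3-7 (edgeR adjusted p = 0.057 and 0.13), 1.16 and 2.14 for IGKV3-10 (0.21 and 0.066), and -1.62 and -1.27 for IGKV3-5 (0.079 and 0.12). IGKV3-10 also did not pass on reads (2.08, edgeR adjusted p = 0.067). IGKV3-5 also did not pass on reads, with at least 2 reads per clonotype, in DESeq2, or without Igll1-/- replicate 2 or either WT B-2 library (-1.55 to -1.22, adjusted p = 0.066 to 0.18).

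Against WT B-2, Igll1-/- B-1a cells differed in 2 of 7 genes, where 22.6% of all V genes passed (19 of 84). IGKV3-7 was higher in Igll1-/- B-1a with a log2 fold change of 2.10 (SE 0.27, edgeR adjusted p = 0.00047), and IGKV3-4 was lower with -1.66 (SE 0.46, edgeR adjusted p = 0.026). IGKV3-2 had a log2 fold change of -1.12 (SE 0.39, edgeR adjusted p = 0.063) and IGKV3-12 of -0.88 (SE 0.40, edgeR adjusted p = 0.15). The difference in IGKV3-7 passed in every alternative analysis run for this comparison, with log2 fold changes from 1.81 to 2.99. IGKV3-4 did not pass when either WT B-2 library was left out (-1.69 and -1.64, edgeR adjusted p = 0.13 and 0.14). Merging near-identical clonotypes brought it to -0.68 (edgeR adjusted p = 0.22), and DESeq2 gave -1.14 (adjusted p = 0.27) and called IGKV3-10 (1.36, adjusted p = 0.027) in its place.

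Between WT B-1a and WT B-2 cells, 0 of the 7 genes passed in edgeR, where 3.57% of all V genes did (3 of 84). An unadjusted edgeR p under 0.05 was seen for 4 of the 7 genes and for 18 of all 84. In DESeq2 1 of the 7 passed, and 4 of all 84. The values nearest to the threshold were those of IGKV3-2, with a log2 fold change of -1.37 (SE 0.39), and IGKV3-7, with 0.92 (SE 0.27), both with an edgeR adjusted p of 0.066. Scaling the libraries on their bulk of V genes, by TMM factors, moved the median of all 84 genes by 0.26, 0.46 and 0.20 in these 3 comparisons. IGKV3-7 kept its direction in all of them. IGKV3-5 then stood at -1.20 against WT B-1a (edgeR adjusted p = 0.085), and IGKV3-4 at -1.20 against WT B-2 (edgeR adjusted p = 0.10).

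**Figure D2:**
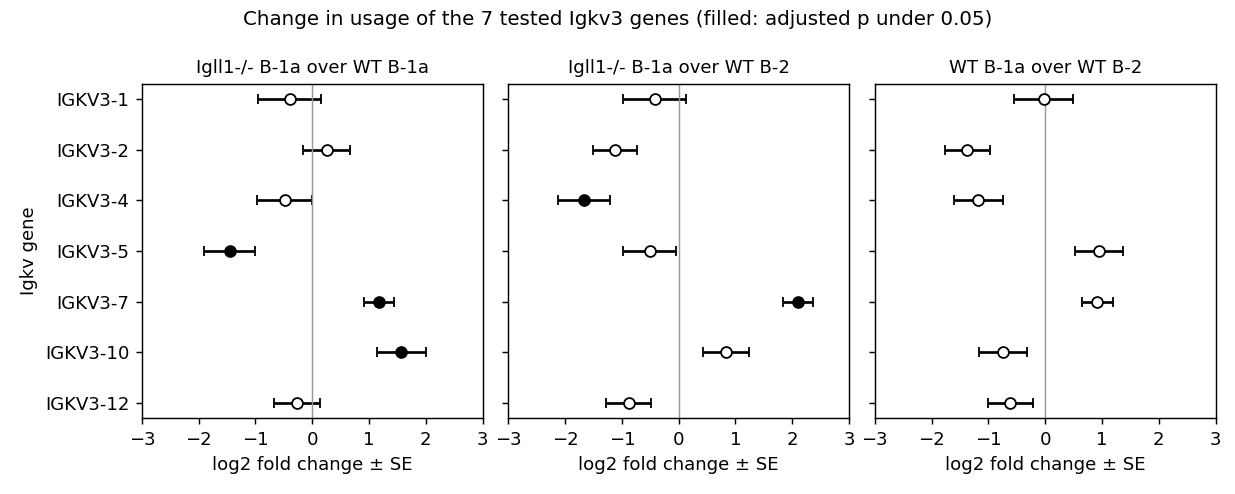
Log2 fold change in share of clonotypes (points) with its standard error (bars) for the 7 tested genes in the 3 comparisons; filled points have an edgeR adjusted p under 0.05. IGKV3-7 lies right of 0 in each panel, at 1.18, 2.10 and 0.92.

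The V genes with usage most like that of a called IGKV3 gene were sought over the 6 libraries, by Pearson's r of log2 shares, as a description with no test. For IGKV3-7 these were IGKV8-30 (r = 0.93) and IGKV4-53 (r = 0.89), and for IGKV3-10 IGKV5-39 (r = 0.94) and IGKV8-34 (r = 0.89). For IGKV3-5 they were IGKV9-128 and IGKV14-126 (r = 0.94 for both), and for IGKV3-4 IGKV4-70 (r = 0.92) and IGKV14-100 (r = 0.90). IGKV14-126, the light chain gene known to pair with VH11 in B-1a cells, stood at 4.89% and 5.29% of clonotypes in WT B-1a and at 0.684% and 0.735% in Igll1-/- B-1a. Of the 13 tested V genes of other families next in the locus, 0 were higher and 1 (IGKV8-28) lower in Igll1-/- than in WT B-1a cells by edgeR. Against WT B-2, 1 of them (IGKV8-30) was higher and 2 (IGKV8-28 and IGKV6-25) were lower, and between the wild-type groups 0 passed in edgeR, 3 at an unadjusted p under 0.05. Of the 7 IGKV3 genes, 2, 1 and 0 were higher and 1, 1 and 0 lower in the same comparisons.

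The IGKV3-7 clonotypes themselves were made up differently in the Igll1-/- libraries. A few CDR3s carried most of the gene's reads, and the following 4 were chosen because they hold its 3 largest clonotypes and its main IGKJ2 joint.
IGKV3-7 to IGKJ1, ending in tryptophan-threonine: QHSWEIPWT
IGKV3-7 to IGKJ1, ending in arginine-threonine: QHSWEIPRT
IGKV3-7 to IGKJ2: QHSWEIPYT
IGKV3-7 to IGKJ5: QHSWEIPLT
QHSWEIPLT was the largest IGKV3-7 clonotype in all 4 wild-type libraries, with 4769 and 2557 reads in WT B-1a and 1473 and 831 in WT B-2, that is 34.7% to 60.7% of the gene's reads. In Igll1-/- B-1a the largest clonotype was an IGKJ1 joint, and it was not the same in both libraries. It was QHSWEIPRT in replicate 1, with 7925 reads or 3.70% of the library, and QHSWEIPWT in replicate 2, with 20562 reads or 7.50% of the library.

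Each of these CDR3s was present in every library, so the libraries differed in their amounts. QHSWEIPRT had 68 to 228 reads in the other 5 libraries, and QHSWEIPWT had 218 to 416. QHSWEIPLT had 2448 reads in Igll1-/- replicate 1 and 23 in replicate 2. QHSWEIPYT had 646 to 889 reads in 5 libraries and 4138 in Igll1-/- replicate 2.

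Without its largest clonotype in each library, IGKV3-7 held 1.12% and 0.774% of reads in WT B-1a, 2.20% and 2.83% in Igll1-/- B-1a, and 0.708% and 0.541% in WT B-2. The groups still did not overlap. Only the largest clonotype itself was taken out, and clonotypes 1 residue away from it, counted below, stayed among the remaining reads. On these remaining reads, an analysis added after the data were seen, the log2 fold change of IGKV3-7 between Igll1-/- and WT B-1a was 1.41 (edgeR adjusted p = 0.025), against 1.80 on all reads (edgeR adjusted p = 0.034). Many clonotypes were close to a larger one. Between 61.9% and 70.3% of the gene's clonotypes in a library were 1 residue away from a clonotype of the same V and J gene with at least 10 times their reads. In Igll1-/- replicate 2, 185 of 385 IGKV3-7 clonotypes joined the largest one in this way, and in WT B-1a replicate 1, 63 of 180. Whether such clonotypes are copying errors was not tested. After merging them, 58 and 35 IGKV3-7 clonotypes remained in WT B-1a, 65 and 129 in Igll1-/- B-1a, and 39 and 32 in WT B-2, and the log2 fold change between the B-1a groups was 1.25 (edgeR adjusted p = 0.00058).

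**Figure D3:**
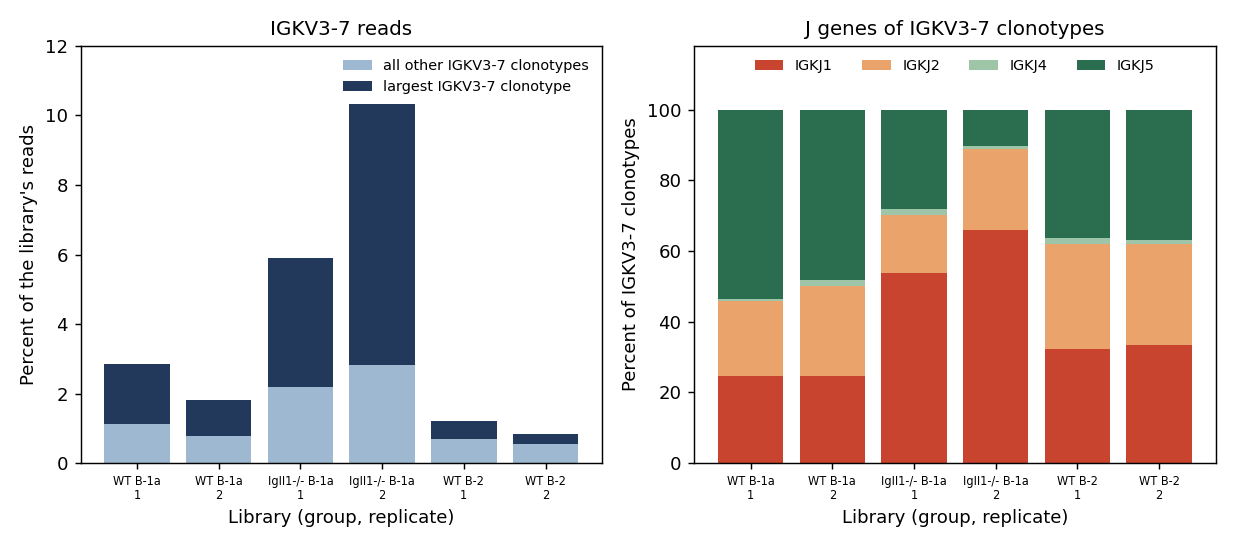
Left, percent of a library's reads assigned to IGKV3-7, split into its largest clonotype and all others. Right, percent of IGKV3-7 clonotypes joined to each J gene, by library, with near-identical clonotypes not merged. The largest clonotype alone takes 3.70% and 7.50% of the reads of the Igll1-/- libraries, and IGKJ1 takes 53.7% and 66.0% of their IGKV3-7 clonotypes.

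IGKV3-7 joined IGKJ1 in 24.6% of clonotypes in both WT B-1a libraries, in 53.7% and 66.0% in Igll1-/- B-1a, and in 32.4% and 33.3% in WT B-2. Distal joints, to IGKJ4 or IGKJ5, made up 54.2% and 50.0% of its clonotypes in WT B-1a, 29.8% and 11.2% in Igll1-/- B-1a, and 38.1% in both WT B-2 libraries. The Igll1-/- libraries lay below all wild-type libraries. These shares count near-identical clonotypes separately. In Igll1-/- B-1a 94 of 219 and 185 of 385 IGKV3-7 clonotypes joined the largest one on merging, and these are all IGKJ1 joints. The largest in the wild-type libraries was an IGKJ5 joint, joined by 63 and 42 clonotypes in WT B-1a and 24 and 19 in WT B-2. In all clonotypes of a library the distal share ran from 47.7% to 54.2%. In reads, distal joints took 69.8% and 65.0% of IGKV3-7 in WT B-1a, 21.0% and 1.08% in Igll1-/- B-1a, and 53.0% and 44.3% in WT B-2.

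The ratio of distal to proximal joints of each V gene was fitted over 84 V genes with a term per library, and tested by edgeR's quasi-likelihood method. Between Igll1-/- and WT B-1a cells 1 of 7 IGKV3 genes passed, where 4.76% of all V genes did (4 of 84). This was IGKV3-7, whose log2 ratio fell by 2.23 (SE 0.51, edgeR adjusted p = 0.027). The call was lost after merging near-identical clonotypes (-1.17, edgeR adjusted p = 0.66) and without WT B-1a replicate 1 or 2, Igll1-/- replicate 2 or WT B-2 replicate 1 or 2 (-2.34 to -1.37, edgeR adjusted p = 0.067 to 0.37).

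IGKV3-5 had the largest change in the ratio, -2.63, with a wide error (SE 0.87, edgeR adjusted p = 0.17). Its distal joints made up 69.2% and 36.2% of clonotypes in WT B-1a, 14.3% (of 14 clonotypes) in both Igll1-/- libraries, and 39.1% and 56.2% in WT B-2. The other 5 genes had values from -1.17 (IGKV3-1) to -0.37 (IGKV3-2), with edgeR adjusted p-values of at least 0.35. All 7 values were below 0, as were those of 48 of all 84 V genes and of 9 of the 13 tested V genes next in the locus. The median was -1.16 over the 7 genes and -0.11 over all 84. The values of IGKV3-1, IGKV3-2, IGKV3-4 and IGKV3-10 changed sign in some of the alternative analyses. Between WT B-1a and WT B-2 cells 0 of 7 genes passed in edgeR and 0% of all V genes (0 of 84), with 0 of the 7 and 10 of the 84 at an unadjusted p under 0.05. There the values ran from -0.62 (IGKV3-2) to 1.62 (IGKV3-1), with a median of 0.34 over the 7 genes and 0.35 over all.

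**Figure D4:**
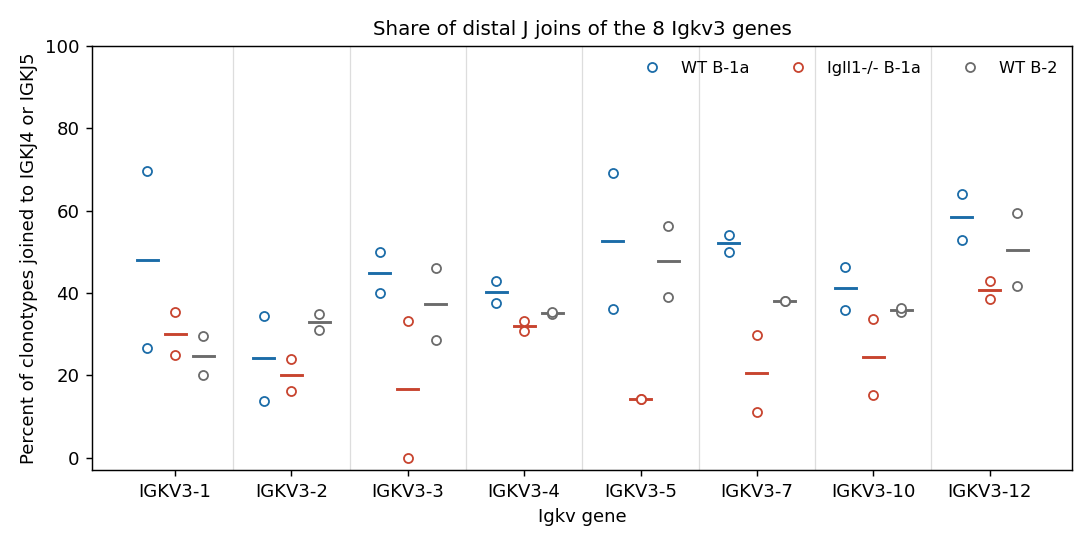
Percent of clonotypes joined to IGKJ4 or IGKJ5 for each of the 8 genes, with near-identical clonotypes not merged. Points are the 2 libraries of a group, short lines their mean. For IGKV3-7 the Igll1-/- libraries (29.8% and 11.2%) lie below the wild-type ones, and IGKV3-3 rests on 2 to 13 clonotypes per library.

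Reads on IGKV3-5 and IGKV3-10 were likewise held by few CDR3s. The largest clonotypes of IGKV3-5 are shown with the J gene because the same CDR3 start also belongs to IGKV3-4.
IGKV3-5 to IGKJ5: QQSNEDPLT
IGKV3-5 to IGKJ2: QQSNEDPYT
IGKV3-5 to IGKJ1: QQSNEDPWT
QQSNEDPLT led in WT B-1a replicate 1 with 604 reads, QQSNEDPYT in WT B-1a replicate 2 with 580, and QQSNEDPLT in both WT B-2 libraries with 184 and 375. In Igll1-/- B-1a the IGKJ1 joint QQSNEDPWT led in both libraries, with 316 and 106 reads, where the IGKJ5 joint had 8 and 4. QQSNEDPWT had 15 and 25 reads in WT B-1a and 67 and 80 in WT B-2. IGKJ1 joints made up 96.2% and 93.0% of IGKV3-5 reads in Igll1-/- B-1a, 4.04% and 7.32% in WT B-1a, and 26.0% and 16.3% in WT B-2. The groups did not overlap in this share, which was not tested on reads.

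For IGKV3-10, the joint to IGKJ2 (QQNNEDPYT) had 2304 reads and the IGKJ1 joint QQNNEDPRT 1245 in Igll1-/- replicate 2, against 70 to 384 and 59 to 209 in the other 5 libraries. In Igll1-/- replicate 1 the largest was another IGKJ1 joint, QQNNEDPWT, with 655 reads. Distal joints took 11.1% and 1.18% of IGKV3-10 reads in Igll1-/- B-1a, 25.3% and 39.7% in WT B-1a, and 39.8% and 47.0% in WT B-2. Without the largest clonotype IGKV3-10 held 0.107% and 0.276% of reads in WT B-1a, 0.497% and 0.763% in Igll1-/- B-1a, and 0.552% and 0.410% in WT B-2, so that WT B-2 and Igll1-/- B-1a overlapped.

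IGKV3-4 reads were scarce in Igll1-/- B-1a. They made up 0.234% and 0.175% of reads in WT B-1a, 0.0439% (94 reads) and 0.0386% (106 reads) in Igll1-/- B-1a, and 0.646% and 0.715% in WT B-2, with no overlap between groups. By reads the log2 fold change between Igll1-/- and WT B-1a was -2.31 (edgeR adjusted p = 0.028), against -0.48 by clonotypes (edgeR adjusted p = 0.52), so the call for IGKV3-4 depends on what is counted. Its largest clonotype was the IGKJ5 joint QQSNEDPLT in both WT B-2 libraries, with 582 and 633 reads, where Igll1-/- B-1a had 19 and 5. The reads assigned to IGKV3-4 were on average 97.0% and 95.8% identical to the gene in Igll1-/- B-1a and 99.1% to 99.8% in the other libraries. The part of misassigned reads in these values was not tested.

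IGKV3-12 and IGKV3-2 used IGKJ5, IGKJ2 and IGKJ1 side by side. For IGKV3-12 the joint QHSRELPLT to IGKJ5 led in 4 libraries, including WT B-2 with 1644 and 1167 reads, QHSRELPYT to IGKJ2 in WT B-1a replicate 2 with 683 and QHSRELPWT to IGKJ1 in Igll1-/- replicate 2 with 861. For IGKV3-2 the IGKJ1 joint QQSKEVPRT reached 527 reads in Igll1-/- replicate 2 and 49 to 256 in the other libraries. In IGKV3-1 the largest clonotype of any library was QQSRKVPSLT to IGKJ5 with 10 residues, at 352 reads in WT B-1a replicate 1 and 0 to 2 reads elsewhere.

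Most IGKV3 clonotypes were productive, meaning in frame and without a stop codon. The productive share of the family was 91.6% and 92.1% in WT B-1a, 91.8% and 89.5% in Igll1-/- B-1a, and 93.7% and 94.5% in WT B-2, where all *Igk* clonotypes stood at 86.4% to 88.6%. Over all libraries the productive share ran from 88.1% for IGKV3-7 (129 unproductive of 1088) to 96.1% for IGKV3-10 (18 of 466) among the tested genes, and all 33 IGKV3-3 clonotypes were productive.

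IGKV3-12 was the gene whose productive share differed by the test. It was 88.7% (6 of 53 clonotypes unproductive) and 80.6% (14 of 72) in WT B-1a, 100% (0 of 29) and 95.5% (3 of 66) in Igll1-/- B-1a, and 96.0% (5 of 124) and 97.3% (3 of 110) in WT B-2. Both WT B-1a libraries lay below the other 4. In edgeR's quasi-likelihood test 1 of 7 genes passed between Igll1-/- and WT B-1a, where 3.57% of all V genes did (3 of 84). For IGKV3-12 the log2 ratio of productive to unproductive clonotypes was higher by 2.46 (SE 0.69, edgeR adjusted p = 0.033) in Igll1-/- B-1a, where 1 library held 0 unproductive clonotypes, so the size depends on the prior count of the fit. Between WT B-1a and WT B-2 again 1 of 7 passed, where 1.19% of all V genes did (1 of 84), and IGKV3-12 stood at -2.38 (SE 0.55, edgeR adjusted p = 0.0032).

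The unproductive IGKV3-12 clonotypes of WT B-1a were not spread evenly. In replicate 2, 12 of 14 had a CDR3 of 19 positions and held 203 reads, 190 of them in 1 clonotype. In replicate 1, 5 of 6 had 9 positions and held 66 reads, 62 of them in 1 clonotype. With clonotypes of at least 2 reads only, or with near-identical clonotypes merged, IGKV3-12 passed in neither comparison (edgeR adjusted p of at least 0.66), nor did it without WT B-1a replicate 1 or 2 (edgeR adjusted p = 0.14 to 0.87). The log2 ratios without these libraries were 2.81 and 1.90 between Igll1-/- and WT B-1a, and -2.73 and -1.83 between WT B-1a and WT B-2. Between Igll1-/- and WT B-1a it did not pass when any 1 of the 6 libraries was left out. Between WT B-1a and WT B-2 the call was also lost when either WT B-2 library was left out. The log2 ratio there ran from -2.73 to -1.83 over all fits that left out a library.

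Shared clonotypes carried most of the reads of the 8 genes. The family's clonotypes formed 1848 combinations of V gene, J gene and CDR3, of which 1375 (74.4%) occurred in 1 library and 41 (2.22%) in all 6, where 3.84% of the combinations of all V genes occurred in all 6 (931 of 24232). The 41 combinations held 77.4% to 87.9% of the family's reads in each library. The same share over all V genes was not computed. A combination with many reads is also more likely to be found in every library. IGKV3-7 contributed 15 of the 41, which was 2.09% of its own 718 combinations. IGKV3-12 gave 8 (2.89% of its own), IGKV3-2 5 (2.59%), IGKV3-4 4 (3.125%), IGKV3-5 4 (3.48%) and IGKV3-10 4 (1.27%). IGKV3-1 gave 1 (1.30%) and IGKV3-3 0. The WT B-2 libraries had 187 combinations in common, 34.9% of the combinations of the one and 39.4% of the other. The WT B-1a libraries had 121 in common (32.7% and 33.2%) and the Igll1-/- libraries 137 (34.3% and 20.7%). Between groups a pair of libraries had 96 to 137 in common, which overlaps with the counts within the B-1a groups. The part of carry-over between libraries in these counts was not tested.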

How the data were processed

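Rearranged *Igk* genes were amplified from lysed sorted cells without molecular barcodes, products of 100 to 280 bp were kept, and the authors assigned reads with IMGT/HighV-QUEST (version not given in the sources used here). The deposited tables give 1 row per clonotype with its count of reads and the percent identity to the V gene, per the file headers. The 8 genes and all lists were chosen with earlier results of these data known. Named genes were the 8 members, called V genes at position numbers 13 to 32, the 2 most alike V genes per called member (0.5 clonotypes added before log2), the 3 largest clonotypes per member and the largest per library.

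Clonotypes per gene were tested with edgeR 4.0.16 (R 4.3.3; quasi-likelihood, library size = all clonotypes, genes reaching 10 clonotypes in 2 or more of 6 libraries), and paired counts (productive, distal J) with a library term; p-values measure the spread between 2 libraries a group. Scripts were tested on simulated data. Alternatives were reads, at least 2 or 10 reads per clonotype, productive clonotypes only, merging, split V calls, TMM, DESeq2 1.42.0, no filter, a replicate block and leaving out each library. Replicates differed beyond sampling noise (chi-square over the family 14.2 to 41.5 on 7 degrees of freedom). *Igh* tables were not used here.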

Additional observations from a re-analysis of the deposited data

How the results depend on the processing

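The 31 member values compared across settings gave 459 alternative values, of which 368 kept direction and side of the threshold, 45 no longer passed, 22 newly passed and 24 changed sign. The number of IGKV3 genes called between Igll1-/- and WT B-1a (3) ranged from 0 to 3 over fits that left out a library, and was 2 or 3 otherwise. IGKV3-7 was among them in every fit except those without a WT B-1a library. Against WT B-2 the count (2) was 1 with at least 10 reads, with merging and with TMM factors, 4 on reads without the largest clonotype, and 1 to 4 leaving out a library. Between WT B-1a and WT B-2 the count (0) was 1 with productive clonotypes, merging, DESeq2 and the replicate block, 2 with no filter and on reads without the largest clonotype, and 0 to 2 leaving out a library (2 without either Igll1-/- library). The single gene gained with the replicate block was IGKV3-7 (0.91, edgeR adjusted p = 0.022). For productive share both counts of 1 became 0 with at least 2 or 10 reads and with merging, the first also with the replicate block, and ranged from 0 to 0 and 0 to 1 leaving out a library. For distal J the count of 1 became 0 with merging, 2 with no filter, and 0 to 1 leaving out a library. Over all V genes, usage calls ranged from 7 to 31, 6 to 39 and 1 to 12 (main 15, 19 and 3). Called V genes split 7 higher and 8 lower, 6 and 13, and 3 and 0; with TMM 10 and 6, 7 and 1, and 3 and 0; with DESeq2 8 and 6, 8 and 1, and 4 and 0. Likeness by replicate number between groups was low (r = 0.03, 0.0067 and -0.19 across 84 genes). With 2 libraries a group this cannot show whether equal numbers mark a pair. The replicate block changed no other call of a member.

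The summed share differed by 3.14 percentage points between Igll1-/- and WT B-1a, and by 6.35 in reads. Between WT B-1a and WT B-2 it differed by -0.71, and by -1.36 with at least 10 reads.

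Changes of sign, all with an adjusted p of at least 0.66, were these in usage between Igll1-/- and WT B-1a: IGKV3-1 0.17 and IGKV3-2 -0.0079 on reads without the largest clonotype, IGKV3-4 0.36 with merging, and, leaving out a library, IGKV3-1 (range -1.20 to 0.16), IGKV3-4 (-0.85 to 0.0042) and IGKV3-12 (-0.79 to 0.11, with 0.0024 without WT B-1a replicate 2). Against WT B-2 they were IGKV3-1 0.036 with TMM, 0.15 with DESeq2 and -1.23 to 0.13 leaving out a library, and IGKV3-5 0.024 with DESeq2. Between WT B-1a and WT B-2 they were IGKV3-1 0.055 with at least 2 reads, 0.020 with productive clonotypes, 0.18 with TMM, 0.27 with DESeq2, and -0.34 to 0.22 leaving out a library, and IGKV3-5 -0.22 on reads without the largest clonotype. For distal J they were IGKV3-1 0.030 and IGKV3-10 0.26 with merging, IGKV3-2 0.11 and IGKV3-4 0.43 with at least 2 reads, and, leaving out a library, IGKV3-1 (-2.26 to 0.35) and IGKV3-2 (-1.10 to 0.59). The cause of these changes was not tested. Few clonotypes limit what can be seen: IGKV3-1, IGKV3-3, IGKV3-4 and IGKV3-5 held at most 17 in either Igll1-/- library.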
